A study of Mus musculus with 6 samples.

Results

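F-box proteins are the parts of SCF ubiquitin ligases that choose which protein is degraded, and 79 of the 41079 genes in the expression table encode them under an Fbxl, Fbxo or Fbxw name. They were taken as every protein-coding row whose symbol begins with 1 of these 3 names followed by a digit, which gave 19 Fbxl, 36 Fbxo and 24 Fbxw genes. RNA was measured in D10 cells (D10.G4.1), a single cloned mouse line of CD4+ helper T cells. The cold-acclimated group of 3 libraries came from cells kept for 24 h at 26°C, and the non-acclimated group of 3 libraries from cells kept for 24 h at 37°C. Both groups carry the same line name in the labels, with no genetic change, and the comparison asks which transcripts differ after a day of cold. The methods of the study describe the 3 replicates of each condition as prepared independently.

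In an SCF ligase, Cul1 is a scaffold that holds the RING protein Rbx1 at its far end and the adaptor Skp1 at its near end, and the F-box protein docks on Skp1 through its F-box motif. The rest of the F-box protein binds the substrate, often once that substrate is phosphorylated. Fbxw proteins bind it through WD40 repeats, Fbxl proteins through leucine-rich repeats, and Fbxo proteins through other domains. In T cells these ligases regulate the cell cycle, antigen receptor signaling and checkpoint receptors, and they turn over iron regulators in most tissues.

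Read numbers recovered from the TPM values (transcripts per 1000000, a level already divided by gene length) ran from 16899628 to 31290854 per library, and the tested F-box genes had between 12 and 5408 reads in a library. Before the results, 1 property of the libraries has to be given. Cd4 was at 1.09, 0.035 and 309.7 TPM in replicates 1, 2 and 3 kept at 37°C, and at 1.30, 0.352 and 328.0 TPM in those kept at 26°C. It was therefore near 0 in the 4 libraries of replicates 1 and 2, against the CD4+ label. Cd3d was at 64.3 and 78.6 TPM in the replicate 2 libraries and at 240.1 to 332.4 TPM in the other 4, and Cd28 at 7.35 and 5.61 TPM against 27.9 to 54.5 TPM. Cd3e, Cd3g, Lck and Gata3 were at 223.4 TPM or more in all 6 libraries. Whether all 3 replicates are the same line in the same state is therefore in doubt. The 5 macrophage and monocyte markers summed to 15.9 and 21.2 TPM in the replicate 3 libraries and 2.46 to 3.39 in the other 4. In the replicate 3 libraries the sum came from Lyz2 (11.6 and 14.8 TPM) and Cd68 (4.27 and 6.36 TPM). Csf1r and Adgre1 were at 0.0705 TPM or less in every library, and Cd14 was at 0 in all of them. The B cell markers summed to between 0.125 and 1.11 TPM, and the CD8 T cell markers to between 0 and 0.225 TPM. Of the erythroid markers only Hba-a1 was above 2 TPM, at 60.8 to 484.9. The part of these differences in the results was not tested, and the main counts are given without the replicate 3 pair and without the replicate 2 pair beside those from all libraries.

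Of the 79 F-box genes, 59 had reads and 50 had a mean TPM of at least 1 and were tested, namely 15 Fbxl, 26 Fbxo and 9 Fbxw genes. A gene was called when the limma adjusted p was under 0.05 and the log2 fold change of TPM + 1 was at least 1 in size. After 24 h at 26°C, 2 of the 50 were called upregulated (Fbxo17 and Fbxw9), where 2.63% of all 12227 tested genes were. Another 9 were called downregulated (Fbxl20, Fbxl8, Fbxo34, Fbxo48, Fbxo38, Fbxo5, Fbxo46, Fbxw4 and Fbxo28), where 16.0% of all tested genes were. Both counts lie near the background. Fbxl6 passed the adjusted p with a smaller change, which left 38 genes that did not pass.

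The median log2 fold change of the 50 genes was -0.224, against -0.337 for all tested genes, a difference of 0.113. Within replicates 1, 2 and 3 this difference was 0.142, 0.134 and 0.120. By family, the median was -0.250 for Fbxl, -0.347 for Fbxo and 0.227 for Fbxw genes. The values of the 3 cold-acclimated libraries lay above all 3 non-acclimated values in 5 genes and below them in 15, where 9.69% and 31.4% of all tested genes did so, and the conditions overlapped in the other 30. Of the 5 genes that were higher without overlap, 4 were Fbxw genes, from 9 tested. The summed TPM of all F-box genes was 1184, 1384 and 1131 at 37°C and 1073, 1142 and 1091 at 26°C. The totals of the conditions overlapped, but within each replicate number the total was lower at 26°C with TPM as deposited.

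**Figure D1:**
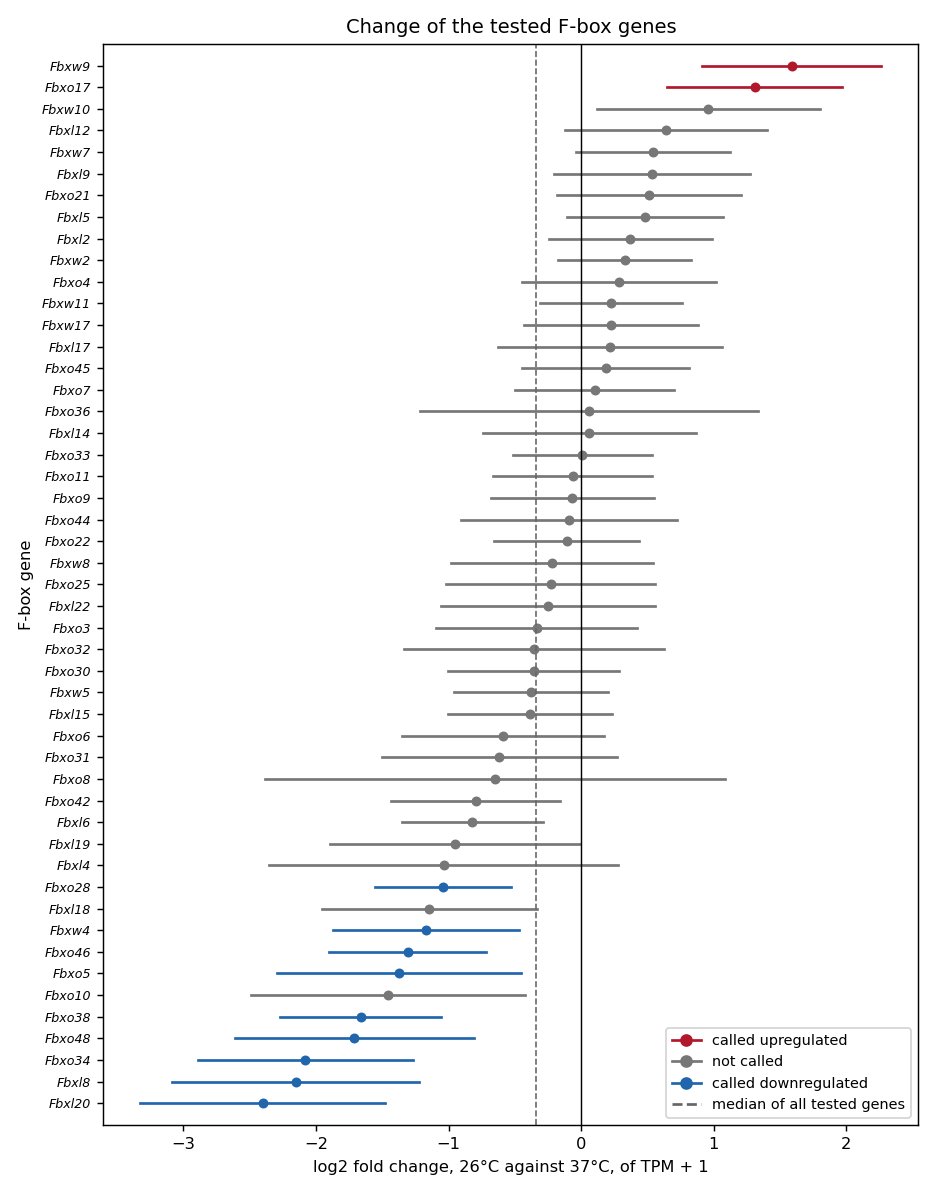
Log2 fold change of TPM + 1, 26°C against 37°C, of the tested F-box genes described here, with points for the limma estimate, bars for its 95% interval and a dashed line for the median of all tested genes. The 9 called downregulated genes run from -1.04 to -2.40, and the 2 called upregulated genes stand at 1.31 and 1.59. Fbxo10 and Fbxl18 lie among the former at -1.46 and -1.14 but were not called.

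The scaling of the libraries bears on every direction. TPM forces each library to the same total, and median of ratios factors ran from 1.117 to 1.206 in the non-acclimated and from 0.842 to 0.966 in the cold-acclimated libraries. With that scaling the median of all genes moved from -0.337 to 0.02 and that of the F-box genes from -0.224 to 0.153. The 20 positive and 30 negative F-box estimates became 28 and 22. The calls became 2 up and 5 down, where 6.56% and 8.79% of all tested genes were called. Fbxo17, Fbxw9, Fbxl20, Fbxl8, Fbxo34, Fbxo48 and Fbxo38 were called under both scalings, and Fbxo5, Fbxo46, Fbxw4 and Fbxo28 only with the deposited TPM.

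**Figure D2:**
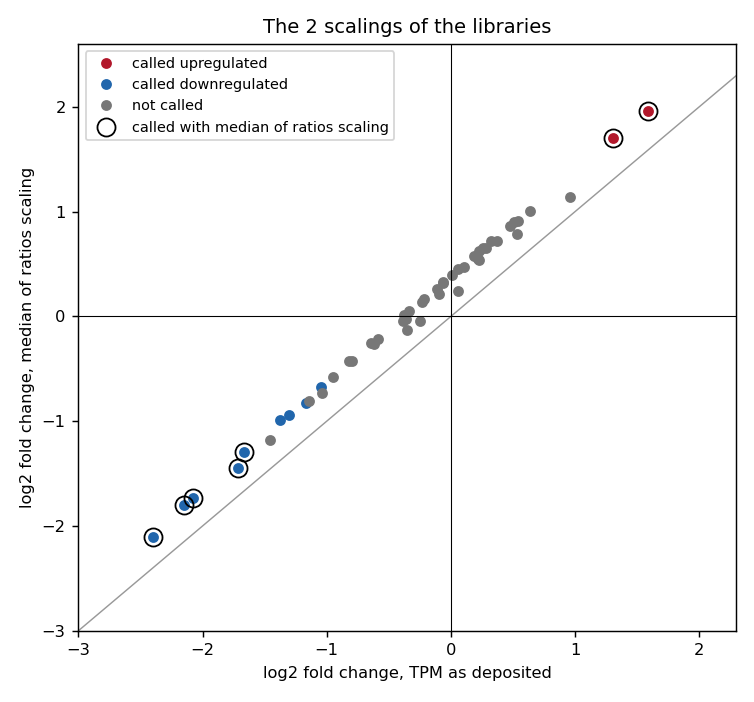
Log2 fold change of the 50 tested F-box genes with TPM as deposited (horizontal axis) and after median of ratios scaling (vertical axis), with the line of equal values. All points lie above that line, and 7 of the 11 called genes (filled in color) carry the ring that marks a call after rescaling.

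The largest fall was that of Fbxl20 (chr11:97973380-98042014 in GRCm39, minus strand), also known as SCRAPPER, which turns over a presynaptic scaffold protein in neurons. Its TPM was 14.5, 12.6 and 5.27 at 37°C and 0.75, 1.34 and 1.20 at 26°C. The conditions were far apart, and non-acclimated replicate 3 was the lowest of its group. The log2 fold change was -2.40 (SE 0.397, limma adjusted p = 0.010). Fbxl8 (chr8:105991280-105995958, plus strand) measured 31.6, 19.6 and 21.7 TPM at 37°C and 6.26, 2.16 and 6.54 TPM at 26°C. It fell by 2.15 on the log2 scale (SE 0.399, adjusted p = 0.014), with no overlap. Its neighbor Fbxl9 (chr8:106038972-106052952) was not called, at 2.15, 1.23 and 1.09 TPM against 3.21, 1.87 and 2.68 TPM (log2 fold change 0.54, adjusted p = 0.26).

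Fbxo34 (chr14:47709992-47769419, plus strand) fell from 21.2, 18.7 and 18.3 TPM to 3.31, 2.34 and 6.78 TPM. The non-acclimated values were close together, and cold-acclimated replicate 3 was the highest of its group (log2 fold change -2.08, SE 0.349, adjusted p = 0.011). Fbxo48 (chr11:16901225-16908516, plus strand), which has been described as acting on the phosphorylated alpha subunit of AMPK, had 6.63, 5.62 and 5.14 TPM at 37°C. At 26°C it had 0.797, 0.407 and 2.50 TPM, from 47, 25 and 174 reads. The log2 fold change was -1.71 (SE 0.387, adjusted p = 0.023). It was not called without the filter on low values, at an adjusted p of 0.061.

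Fbxo38 (chr18:62637130-62681934, minus strand) directs the checkpoint receptor PD-1 to degradation in T cells. Its TPM was 26.9, 22.3 and 17.3 at 37°C and 5.83, 5.75 and 7.16 at 26°C. All 3 cold-acclimated values lay well below the lowest non-acclimated one, and the log2 fold change was -1.66 (SE 0.262, adjusted p = 0.0093). It was called in 12 of the 14 alternative settings, the highest number among the 79 genes. The exceptions were the fits without non-acclimated replicate 2 and without the replicate 2 pair, which called none of the 79 downregulated.

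Fbxo5 (chr10:5749155-5755465, minus strand), or Emi1, inhibits the anaphase-promoting complex (APC/C) so that cyclins can build up before mitosis. It was among the 8 most abundant F-box genes, at 75.4, 83.8 and 78.0 TPM in non-acclimated libraries. The cold-acclimated libraries had 28.0, 17.2 and 54.9 TPM. The non-acclimated values were nearly level, whereas the cold-acclimated ones were spread widely with replicate 3 on top. The log2 fold change was -1.38 (SE 0.395, adjusted p = 0.046), and the adjusted p was 0.091 with median of ratios scaling. Without the replicate 3 pair the log2 fold change was -1.81 (adjusted p = 0.0081).

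The other 3 called downregulated genes changed less. Fbxo46 (chr7:18853784-18872186, plus strand) had 12.8, 19.3 and 16.6 TPM at 37°C against 6.14, 6.03 and 5.48 TPM at 26°C (log2 fold change -1.31, adjusted p = 0.016). Fbxw4 (chr19:45566693-45648954, minus strand), known as dactylin from a mouse limb mutant, had 11.0, 11.6 and 8.55 TPM against 3.40, 3.16 and 5.89 TPM (log2 fold change -1.17, adjusted p = 0.034). Fbxo28 (chr1:182140667-182169171, minus strand) was the most even of them, with 22.4, 20.9 and 19.2 TPM against 9.76, 9.68 and 9.31 TPM (log2 fold change -1.04, adjusted p = 0.020). None of the 3 overlapped between conditions. Fbxl6 (chr15:76419923-76422946, minus strand) passed the adjusted p only, with 80.2, 99.2 and 108.7 TPM against 50.2, 48.9 and 62.5 TPM (log2 fold change -0.82, adjusted p = 0.042). After median of ratios scaling its adjusted p was 0.17.

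Fbxw9 (chr8:85786748-85793750, plus strand), a WD40-repeat member, had the highest log2 fold change of TPM + 1. It had 7.12, 7.53 and 13.3 TPM at 37°C and 26.5, 31.9 and 28.8 TPM at 26°C. Every cold-acclimated value was above every non-acclimated one (log2 fold change 1.59, SE 0.290, adjusted p = 0.013). Fbxo17 (chr7:28416176-28437570, plus strand), of the group with a sugar-binding domain, had 25.0, 33.0 and 42.0 TPM at 37°C. At 26°C it had 100.4, 86.9 and 63.7 TPM, again with no overlap (log2 fold change 1.31, SE 0.284, adjusted p = 0.021). In both genes the replicate 3 libraries lay nearest to each other. Fbxo27, which lies next to Fbxo17 at chr7:28392205-28398763, was at 0 in all 6 libraries. Fbxw10 was low, at 0.523, 0.327 and 0.279 TPM against 2.80, 1.77 and 0.812 TPM, from 12 to 108 reads per library. It was not called with TPM as deposited (log2 fold change 0.96, adjusted p = 0.094), and was called in 4 of the 14 alternatives. Its rank depends on the pseudocount, since with a pseudocount of 0.1 its change was 1.87 (adjusted p = 0.096) and that of Fbxw9 1.69.

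**Figure D3:**
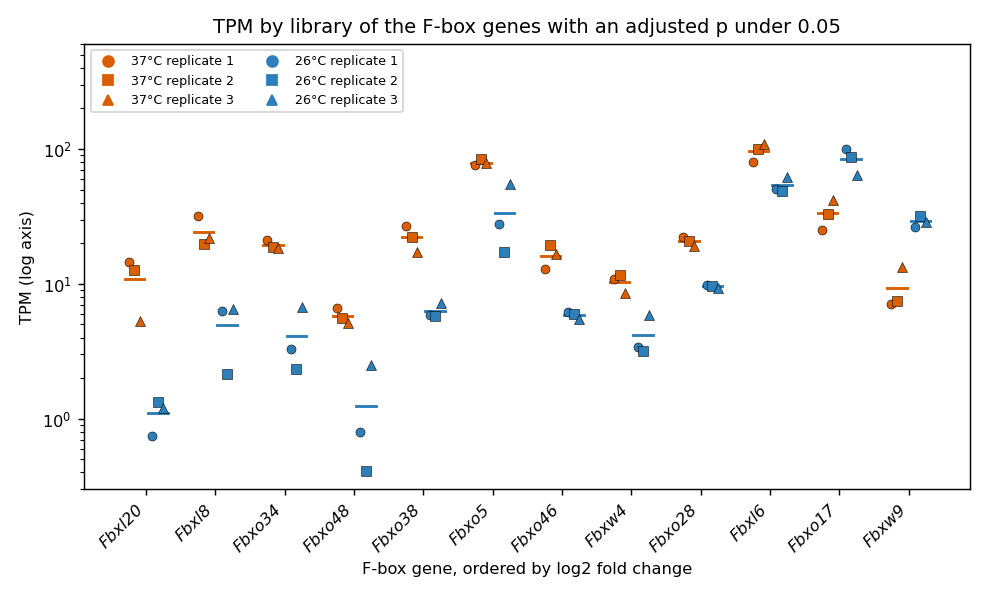
TPM (log axis) in each of the 6 libraries of the 12 F-box genes with an adjusted p under 0.05, ordered by log2 fold change; symbols mark the replicate number, colors the temperature and short lines the group means. The conditions do not overlap in any of the 12, and the triangles of replicate 3 tend to lie closest together.

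The cold response of these genes was smallest in the replicate 3 pair. Among the 12 F-box genes with an adjusted p under 0.05, the difference between 26°C and 37°C was smallest in replicate 3 for 10, and over all genes past the same adjusted p this held for 73.4%. At least a doubling or its reverse on the log2 scale (a size of 1) was seen downward in 12, 14 and 7 F-box genes and upward in 3, 3 and 2 within replicates 1, 2 and 3. Those shares, 24%, 28% and 14% downward, were near the 26.5%, 30.8% and 15.3% of all tested genes. Upward they were 6%, 6% and 4%, near the 7.96%, 6.93% and 3.42% of all tested genes. Without the replicate 3 pair, 3 F-box genes were called upregulated and 12 downregulated, and the 11 calls made with all libraries were among them. Calls grew over all tested genes too, to 5.34% up and 25.3% down. Without the replicate 2 pair limma called no gene at all, F-box or other (0.00% in each direction). In that fit 10 F-box genes had an unadjusted p under 0.05, and the share of all tested genes at that p was not counted. The 9 downregulated genes then had log2 fold changes between -0.95 and -2.33, and Fbxo17 and Fbxw9 had 1.28 and 1.41, all with the same sign as before. Part of the variation went with the replicate number. It held a median of 43.1% of the sum of squares of an F-box gene's log2(TPM + 1), against 31.5% over all tested genes. The condition held 44.3% and 44.7%. The replicate number has more levels than the condition, so on average it takes the larger share where neither has an effect.

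**Figure D4:**
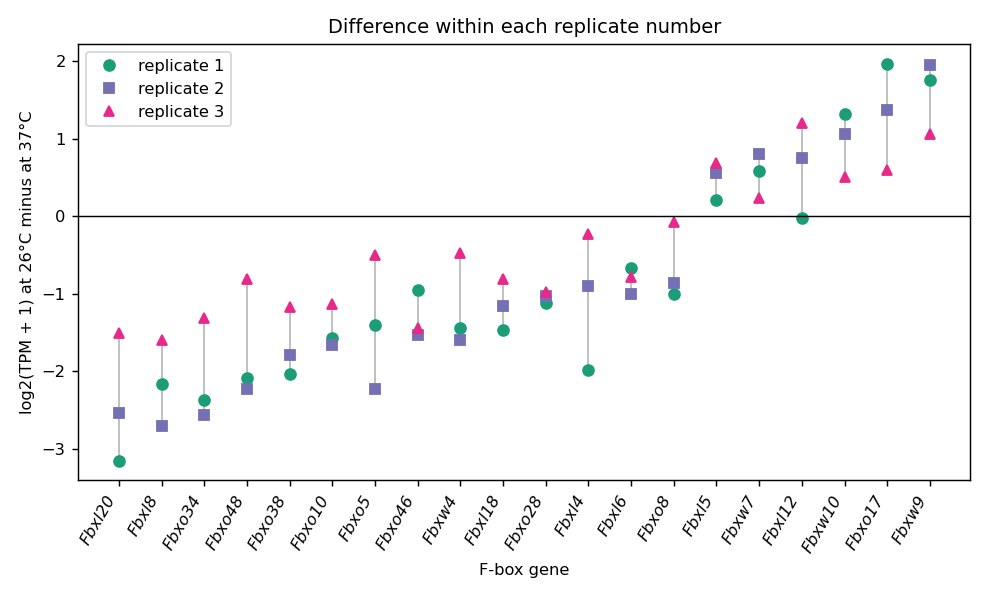
Difference in log2(TPM + 1) between 26°C and 37°C within each replicate number. Shown are the 12 F-box genes with an adjusted p under 0.05 and 8 others, all but Fbxl4 described in the text. For Fbxo5 the differences were -1.40, -2.22 and -0.50, and for Fbxo17 1.96, 1.37 and 0.59, with replicate 3 nearest to 0 in both.

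With the replicate number as a block in the limma fit, 11 F-box genes were called downregulated, where 21.9% of all tested genes were, and the 2 upregulated genes were called as before. The 2 gained were Fbxo10, which acts on the survival protein Bcl2, and Fbxl18. Fbxo10 had 4.71, 7.77 and 2.22 TPM at 37°C and 0.917, 1.78 and 0.463 TPM at 26°C. Its log2 fold change of -1.46 had an adjusted p of 0.055 without and 0.0099 with the block. Fbxl18 had 7.74, 11.0 and 10.7 TPM against 2.15, 4.39 and 5.67 TPM. Its log2 fold change was -1.14, with an adjusted p of 0.054 without and 0.016 with the block. Both genes lay just outside the threshold in the unblocked fit, as Fbxo5 at 0.046 lay just inside.

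Promoters are shown for 5 of the called genes, the 3 falls Fbxl20, Fbxo34 and Fbxo5 and both rises, so that the elements named next can be seen in them. The sequences are RefSeq's (table on GRCm38.p6), 250 bases before to 50 bases after the start, and were placed on GRCm39 by an exact match. Capitals mark the CCAAT box, the GC box with the letters GGGCGG and the cell cycle homology region with the letters TTTGAA, each on either strand. Fbxl20 lies at chr11:98040393-98040692 on the minus strand, Fbxo34 at chr14:47709768-47710067 on the plus strand and Fbxo5 at chr10:5755416-5755715 on the minus strand. Fbxw9 lies at chr8:85786498-85786797 on the plus strand and Fbxo17 at chr7:28415957-28416256 on the plus strand.
Fbxl20: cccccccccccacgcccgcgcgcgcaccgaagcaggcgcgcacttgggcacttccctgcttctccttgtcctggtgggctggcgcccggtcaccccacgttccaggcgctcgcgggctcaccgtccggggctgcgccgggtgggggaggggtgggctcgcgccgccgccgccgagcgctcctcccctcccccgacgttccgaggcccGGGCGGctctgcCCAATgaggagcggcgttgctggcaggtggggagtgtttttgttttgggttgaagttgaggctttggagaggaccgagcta
Fbxo34: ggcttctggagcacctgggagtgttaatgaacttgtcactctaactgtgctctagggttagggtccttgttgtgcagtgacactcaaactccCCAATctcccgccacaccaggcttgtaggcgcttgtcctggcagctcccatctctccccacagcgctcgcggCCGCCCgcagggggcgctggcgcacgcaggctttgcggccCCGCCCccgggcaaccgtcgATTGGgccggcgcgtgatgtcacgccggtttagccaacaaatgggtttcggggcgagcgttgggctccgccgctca
Fbxo5: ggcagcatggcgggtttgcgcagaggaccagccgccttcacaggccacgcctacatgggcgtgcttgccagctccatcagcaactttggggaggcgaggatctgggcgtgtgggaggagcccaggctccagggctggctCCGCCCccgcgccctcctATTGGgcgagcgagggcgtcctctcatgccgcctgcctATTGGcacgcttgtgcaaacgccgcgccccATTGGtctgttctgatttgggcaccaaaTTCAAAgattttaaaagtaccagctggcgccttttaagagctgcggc
Fbxw9: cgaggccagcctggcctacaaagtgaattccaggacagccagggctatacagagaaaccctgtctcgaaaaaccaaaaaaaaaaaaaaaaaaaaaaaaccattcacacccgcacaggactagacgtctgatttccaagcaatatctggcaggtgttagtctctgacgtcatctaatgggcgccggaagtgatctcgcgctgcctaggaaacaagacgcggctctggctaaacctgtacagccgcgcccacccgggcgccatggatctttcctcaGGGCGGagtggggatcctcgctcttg
Fbxo17: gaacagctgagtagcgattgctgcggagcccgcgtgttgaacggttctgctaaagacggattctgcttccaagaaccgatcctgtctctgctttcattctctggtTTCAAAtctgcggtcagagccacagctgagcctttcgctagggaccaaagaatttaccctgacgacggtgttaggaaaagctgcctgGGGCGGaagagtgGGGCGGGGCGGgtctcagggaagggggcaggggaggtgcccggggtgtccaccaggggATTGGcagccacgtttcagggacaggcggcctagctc

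The Fbxo5 promoter held 3 CCAAT boxes, all in the reverse direction, followed by TTCAAA, the reverse of TTTGAA. This order of elements is known from promoters of G2 and mitosis genes. Of the 79 F-box genes, 59 had a promoter in the table, and of the 50 tested genes 38 did. CCAAT was in 13 of these 38 and in 41.1% of all 27025 promoters. It was in 5 of the 6 called downregulated genes with a promoter (Fbxl20, Fbxo28, Fbxo34, Fbxo48 and Fbxo5). Of the 2 called upregulated genes, 1 held it (Fbxo17). The GC box was in 28 of the 38 and in 38.2% of all promoters. It was in both called upregulated genes and in 5 of the 6 called downregulated genes with a promoter. TTTGAA was in 8 of the 38 against 20.2% of all. The E2F site TTTNNCGC was in 1 against 5.93%, the E-box CACGTG in 4 against 8.09%, and the heat shock element pair GAANNTTC in 2 against 9.04%. The 38 genes had passed the filter on mean TPM, whereas the 27025 promoters were taken whether or not the gene was expressed. The shares are therefore of unlike sets, and the share among all tested genes was not counted. These letters may overlap in a GC-rich stretch, and a match describes the sequence only.

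The most abundant F-box genes were mostly not called. Fbxl14, whose product degrades the Snail transcription factors, had the highest mean TPM, with 85.7, 99.2 and 77.6 TPM at 37°C and 118.5, 118.7 and 53.1 TPM at 26°C. The cold-acclimated values lay on both sides of the others (log2 fold change 0.06, adjusted p = 0.92). Fbxw11, or beta-TrCP2, which degrades beta-catenin and the NF-kappaB inhibitor IkappaB, came next with 77.7, 88.2 and 65.2 TPM against 105.3, 86.0 and 79.5 TPM (log2 fold change 0.23, 95% interval -0.31 to 0.76, adjusted p = 0.52). The difference between the means of these 2 genes was small beside the spread over libraries. Fbxw5, which acts on Tsc2, had 80.7, 61.4 and 49.1 TPM against 51.9, 47.9 and 44.0 TPM (adjusted p = 0.31).

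Fbxo8, which carries a Sec7 domain of the Arf regulators, followed the replicate number rather than the temperature. Its TPM was 81.6, 181.6 and 25.9 at 37°C and 40.3, 99.4 and 24.5 at 26°C, so replicate 2 was the highest and replicate 3 the lowest in both conditions. Replicate number held 86.5% of its variation and temperature 9.7%. The log2 fold change was -0.65 (95% interval -2.38 to 1.09, adjusted p = 0.57). Cep44, whose exons overlap those of Fbxo8 by 661 bases on the other strand, had 30.1, 57.7 and 6.39 TPM against 15.8, 51.3 and 7.06 TPM, with the same order of replicates. In Fbxo36 and Fbxo33 the replicate number held a still larger share, 98.4% and 96.4%.

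Among F-box genes with well-known substrates, Fbxw7, which degrades cyclin E, Myc, Notch and Mcl1, had 9.95, 11.6 and 13.1 TPM at 37°C and 15.4, 21.0 and 15.6 TPM at 26°C. The conditions did not overlap, but the log2 fold change of 0.54 did not pass (adjusted p = 0.16), and the adjusted p was 0.047 with median of ratios scaling at a change of 0.92. Fbxl5, an iron sensor that degrades the iron regulatory protein IRP2, had 22.7, 27.3 and 21.2 TPM against 26.3, 40.7 and 34.5 TPM (log2 fold change 0.48, adjusted p = 0.21, and 0.049 with median of ratios scaling). Fbxl12, which acts on the inhibitor p21, had 12.6, 6.78 and 8.24 TPM against 12.4, 12.1 and 20.2 TPM (log2 fold change 0.64, adjusted p = 0.19). Fbxo7, linked to inherited parkinsonism, had 12.4, 14.6 and 14.7 TPM against 13.1, 13.2 and 19.5 TPM. Fbxo11, which degrades Bcl6, had 37.5, 43.6 and 29.9 TPM against 30.5, 44.2 and 31.6 TPM. Both overlapped between conditions, with adjusted p of 0.81 and 0.89.

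The remaining 29 F-box genes were left out of the test. Fbxl13, Fbxl16, Fbxo15, Fbxo2, Fbxo24, Fbxo39, Fbxo40, Fbxo43 and Fbxo47 had between 1 and 211 reads over all libraries, and Fbxo39 had the highest single value among them at 1.10 TPM. Another 20 were at 0 in every library. Of these, 15 are Fbxw genes that lie together at chr9:108968522-109620484, a stretch with no other protein-coding gene of the table. A count of 0 allows up to 3 reads in a library, which is between 0.096 and 0.178 reads per 1000000. The genes of the array are near copies of each other, so reads that match several of them may have been left uncounted, and their zeros are uncertain. The other 5 were Fbxl21, Fbxl7, Fbxo16, Fbxo27 and Fbxo41.

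The genes that F-box proteins work with were described by 7 lists, whose counts are to be read against the 2.63% of all tested genes called upregulated and 16.0% called downregulated, or 6.56% and 8.79% with median of ratios scaling. In the SCF core, 1 of 4 genes was called, the RING protein Rnf7, with 111.1, 142.4 and 147.8 TPM against 258.0, 275.8 and 281.8 TPM (log2 fold change 1.03, adjusted p = 0.019). Skp1, Cul1 and Rbx1 were not called, with log2 fold changes of 0.13, 0.07 and -0.07 and adjusted p of 0.77, 0.84 and 0.92. The sign of Rbx1 turned with median of ratios scaling. Of 8 genes for ubiquitin transfer none was called with TPM as deposited, and the list's median was 0.387. The E2 enzymes Ube2d3 and Ube2g1 passed the adjusted p at 0.76 and 0.74, and with median of ratios scaling both were called upregulated at 1.16 and 1.13 (adjusted p = 0.016 and 0.014).

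Cullin activity depends on attachment and removal of the ubiquitin-like protein Nedd8. Of 13 tested genes for neddylation and F-box exchange, 3 were called downregulated and none upregulated, with a median of -0.162. With median of ratios scaling, 2 were called downregulated and 1 upregulated. Senp8, the protease that matures Nedd8, had 7.58, 10.9 and 5.68 TPM at 37°C against 0.0888, 0.0854 and 0.251 TPM at 26°C (log2 fold change -2.95, adjusted p = 0.0067). The neddylation ligase genes Dcun1d2 and Dcun1d3 were called at -1.92 and -1.05, while Dcun1d5 passed the adjusted p at 0.91. With median of ratios scaling Dcun1d3 was no longer called (-0.71, adjusted p = 0.12), and Dcun1d5 was called upregulated (1.28, adjusted p = 0.019). Cand1, which exchanges F-box proteins on Cul1, was not called (0.12, adjusted p = 0.74). In the COP9 signalosome, which removes Nedd8, Cops8 was called upregulated at 1.03 and Cops7a downregulated at -1.61, and the other 8 genes were not called.

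Of 6 tested F-box genes under other names, 2 were called downregulated, and all 6 estimates were negative (median -0.948), as were 66.5% of those of all tested genes. With median of ratios scaling the same number was called, and Btrc and Kdm2a turned positive at 0.07 and 0.08. Ccnf, or cyclin F, had 74.6, 71.3 and 82.3 TPM against 21.1, 13.3 and 43.8 TPM (log2 fold change -1.67, adjusted p = 0.028). As for Fbxo5, its cold-acclimated value was lowest in replicate 2 and highest in replicate 3, while the order at 37°C differed between these genes. Fbh1, a DNA helicase with an F-box, had 41.9, 51.1 and 19.8 TPM against 5.12, 5.66 and 7.03 TPM (log2 fold change -2.38, adjusted p = 0.0092). Skp2, which degrades the inhibitor p27, did not pass (log2 fold change -0.92, adjusted p = 0.096, and 0.028 with the replicate block). Btrc, or beta-TrCP1, was low and not called (-0.18, adjusted p = 0.68).

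Among 29 tested genes for textbook substrates, 2 were called in each direction, with a median of -0.283. With median of ratios scaling 3 were called upregulated and 1 downregulated, and Wee1 lost its call (-0.81, adjusted p = 0.092). Cry2, a repressor of the circadian clock, had 9.09, 3.65 and 9.52 TPM against 20.6, 21.2 and 23.3 TPM (1.52, adjusted p = 0.025). Snai1, a substrate of Fbxl14, had 0, 0.0751 and 0.256 TPM against 5.21, 5.14 and 2.48 TPM (2.21, adjusted p = 0.0090). Ctnnb1, the beta-catenin gene, fell by 1.78 and Wee1, a mitotic inhibitor kinase, fell by 1.19 on the log2 scale (adjusted p = 0.0074 and 0.033). Of 18 genes of the APC/C, the target of Fbxo5, 5 were called downregulated (Anapc2, Anapc11, Cdc16, Cdc23 and Fzr1, between -1.24 and -1.64) and none upregulated, with a median of -0.736. With median of ratios scaling 3 were called, without Anapc2 (-0.84, adjusted p = 0.064) and Cdc16, whose change of -0.86 was under the size required. Fzr1 encodes the activator Cdh1, and its TPM was 131.0, 154.9 and 124.5 against 40.6, 33.2 and 58.4.

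**Figure D5:**
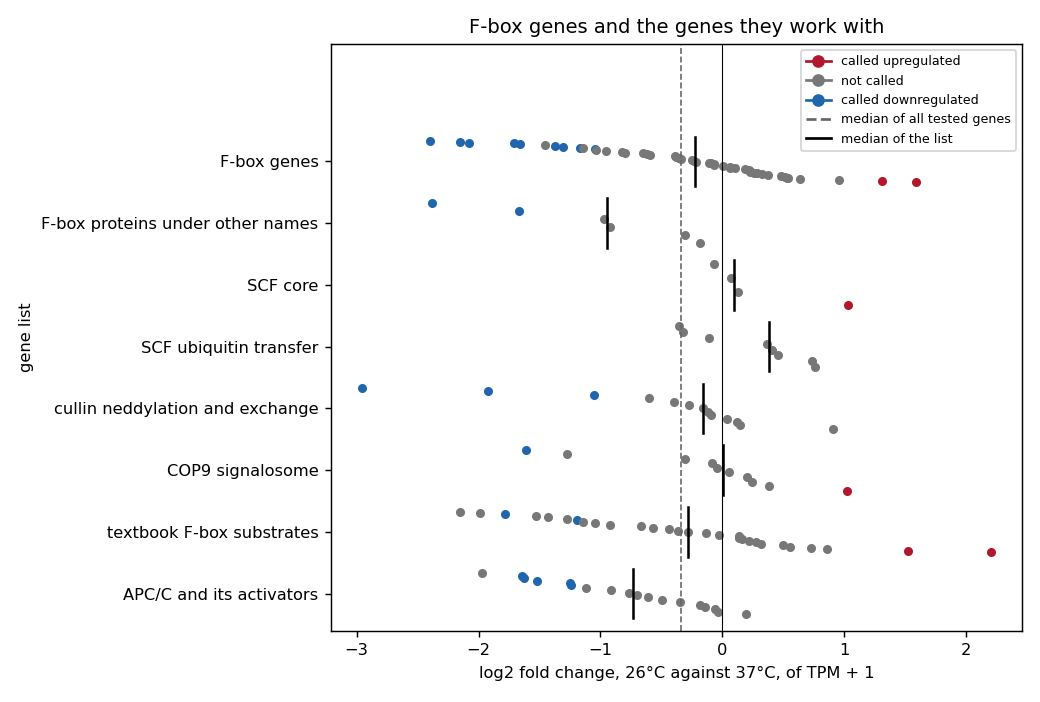
Log2 fold change of TPM + 1, 26°C against 37°C, of the tested genes in 8 lists, with 1 point per gene, colors for the call, a black bar for each list's median and a dashed line for the median of all tested genes at -0.337. The SCF core and ubiquitin transfer lists lie to the right of the dashed line at 0.098 and 0.387, and the APC/C and the F-box genes under other names to its left.

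Some F-box genes share exon bases with a neighbor. The methods of the study describe strand-specific libraries. The strand setting of the authors' counting is not given, however, so reads of overlapping genes could be mixed. Among the called genes, Fbxw9 overlaps A230103J11Rik by 200 bases, Fbxo46 overlaps Qpctl by 1761 bases, Fbxw4 overlaps Dpcd by 559 bases and Fbxl8 overlaps Tradd by 6 bases, all on the other strand. A230103J11Rik had between 31.5 and 43.4 TPM in the 6 libraries and Qpctl between 12.1 and 27.9 TPM, both with overlapping conditions. Tradd moved the same way as Fbxl8, from 60.8, 69.0 and 74.7 TPM to 36.8, 24.0 and 37.6 TPM. Dpcd, with 30.1, 35.1 and 29.4 TPM against 18.0, 16.4 and 32.9 TPM, was lower at 26°C in replicates 1 and 2, as Fbxw4 was. Fbxw9 also overlaps Gng14 (at most 1.63 TPM) and Mir7070, and Fbxo34 overlaps Gm35166, and the latter pair of partners was at 0 in all libraries. Fbxo17 shares exon bases with no other gene of the expression table, and annotated genes outside it were left out of this search. Of the genes not called, Fbxw10 overlaps Trim16 (38.4 to 87.4 TPM) by 237 bases on the same strand, where the strand setting does not matter. Fbxl12 overlaps Ubl5 (mean 69.2 TPM) by 1898 bases on the other strand. Gene length and level at 37°C were little related to the change, with Spearman correlations across the 50 genes of -0.061 and -0.066 as a description. In bulk RNA, a lower TPM through fewer expressing cells and through less RNA per cell cannot be told apart.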

How the data were processed

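RNA sequencing of D10 T cells was analyzed in 3 cold-acclimated and 3 non-acclimated replicates. The authors selected poly(A)+ RNA and made strand-specific libraries. They trimmed reads with Trimmomatic 0.38, checked them with FastQC 0.11.7, aligned them to GRCm39 with HISAT2 2.1.0 and counted genes with featureCounts 1.6.3. The TPM values are as deposited by the authors; the annotation release, strand setting, gene lengths and step from counts to TPM were not given in any source used, and the labels name old and new RNA extraction batches without assigning libraries to them, so batch and condition could not be separated in a fit. Each library sums to 1000000 TPM. Reads were recovered by finding, for each gene, the TPM step that 1 read is worth, and 100% of the 21195 genes above 0 came out whole within 1e-06 reads. A gene with reads in only 1 library comes out whole in any case. In simulated data the read numbers were recovered exactly for 97.3% of 20256 genes.

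Every gene whose mean TPM reached 1 was tested with limma 3.58.1 (R 4.3.3), fitted to log2(TPM + 1) with the trend option and Benjamini-Hochberg adjustment over all 12227 genes. The pseudocount understates the change of low genes. Python 3.11.15 with numpy 2.4.6, pandas 2.3.3 and matplotlib 3.10.9 served for the rest. The fit was tested on simulated data with log2 changes of 2 in size, no replicate effect and no shift between the conditions. It found 183 of 189 changed genes and made 12 false calls among 12202 genes. The real libraries have a replicate effect and a shift, so these numbers do not give the error rate here. The F-box genes and the 7 lists were chosen with earlier results of these data known. Genes were named by a rule: called genes, those with an adjusted p under 0.05, the 8 most abundant, the 4 largest changes in each direction without overlap, and fixed textbook genes. A gene that the rule takes is not reported here, and it stays in the counts and medians. The replicate numbers were taken to pair the libraries, since deviations from the group means correlated at 0.480, 0.503 and 0.512 across all tested genes for the same number and at -0.408 to 0.019 for different numbers. Alternatives were median of ratios scaling, a pseudocount of 0.1, no filter, the replicate block, voom on the recovered reads, leaving out each library, and, chosen after seeing the data, leaving out the replicate 3 pair or the replicate 2 pair.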

Additional observations from a re-analysis of the deposited data

How the results depend on the processing

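The 2 upregulated and 9 downregulated F-box calls were unchanged in number with a pseudocount of 0.1. Median of ratios scaling gave 2 and 5, and with the replicate block added 4 and 6. The replicate block alone gave 2 and 11, voom on recovered reads 3 and 6, no filter 2 and 6, leaving out the replicate 3 pair 3 and 12, and leaving out the replicate 2 pair 0 and 0 by limma, with 10 F-box genes at an unadjusted p under 0.05. For voom, no filter, a pseudocount of 0.1 and the scaling with the block, the share of all tested genes called was not counted. Their counts are therefore not to be read as particular to F-box genes. Leaving out 1 library gave 0 to 3 upregulated and 0 to 10 downregulated genes. No F-box gene was called upregulated without replicate 1 at 26°C, replicate 2 at 26°C, replicate 1 at 37°C or replicate 2 at 37°C. The downregulated calls were then 2, 4, 3 and 0. The share of all tested genes called with 1 library left out was not counted either. These losses are therefore not to be read as particular to F-box genes. At an unadjusted p under 0.05, 14 F-box genes passed without replicate 2 at 37°C. The share of all tested genes at that p was not counted, here or without the replicate 2 pair. The cause of the lost calls was not tested. The median difference from all genes, 0.113, was also 0.113 with the replicate block. It became 0.133 with median of ratios scaling, with or without the block, 0.135 with a pseudocount of 0.1, 0.145 with voom, -0.028 without the filter, which added 9 low F-box genes, 0.082 to 0.219 with 1 library left out, 0.14 without the replicate 3 pair and 0.117 without the replicate 2 pair. Signs turned only in genes that did not pass. With median of ratios scaling, with or without the block, Btrc came to 0.071, Fbxo11 to 0.325, Fbxw5 to 0.016 and Rbx1 to 0.331, and with voom they came to 0.135, 0.338, 0.028 and 0.335. With 1 library left out, Cand1 ran from -0.033 to 0.211, Fbxl14 from -0.131 to 0.441, Fbxo11 from -0.229 to 0.059, Fbxo7 from -0.078 to 0.195, Fbxo8 from -1.377 to 0.004, Rbx1 from -0.486 to 0.181 and Skp1 from -0.085 to 0.280. Without the replicate 3 pair Fbxo7 came to -0.038, and without the replicate 2 pair Fbxl14 came to -0.038 and Rbx1 to 0.099. Fbxw10 and Fbxo48, which had few reads, had SE of 0.360 and 0.387. The largest SE of a tested F-box gene was that of Fbxo8, 0.744, with 907 to 5408 reads per library. Read intervals cover counting error only.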

Other observations

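Fbxl12os, a row typed as a pseudogene and so outside the F-box genes described, lies opposite Fbxl12, with which it shares 645 exon bases. It had 34 reads over all libraries, between 0.0472 and 0.775 TPM, and was not tested.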
